A study of Homo sapiens with 6 samples.

Results

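The cytosolic heat shock proteins and their transcription factor HSF1 were described as 10 named genes out of the 33496 genes listed in each library. The members were chosen by gene symbol, without use of their values, although earlier results of these data were known. They are HSF1, the HSP70 genes HSPA1A, HSPA1B and HSPA8, the HSP90 genes HSP90AA1 and HSP90AB1, the small heat shock protein HSPB1, the HSP110 gene HSPH1, the HSP40 gene DNAJB1 and the co-chaperone BAG3. RNA-seq was performed on 6 libraries of ARPE-19, an established human line of retinal pigment epithelium (RPE), to ask how vitamin K1 (VK1) changes the transcriptome of cells damaged by ferroptosis. Erastin starves cells of cystine and thereby triggers ferroptosis, and all 6 libraries come from cells that received it at 5 μM for 24 h. It was given alone in 3 libraries (Era) and after 1 h of pretreatment with 10 μM VK1 in the other 3 (Era+VK). Untreated cells were not analysed here, so each comparison gives the difference between libraries with and without VK1 under erastin. None gives the response to erastin itself. ARPE-19 is a single line. The labels number the line upwards from library to library while the titles name ARPE-19 throughout, and the labels do not say whether the replicates were grown separately. The study's methods and legends speak in general of independent repeats, without saying how the libraries map to them. The p-values set the difference between group means against the spread between these libraries, which may be partly technical.

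The heat shock response guards the cytosol against unfolded protein. HSF1 is held inactive as a monomer by chaperones. When unfolded protein occupies those chaperones, HSF1 forms trimers and binds heat shock elements, which are inverted repeats of the unit GAA, in the promoters of chaperone genes. HSF1 is regulated mainly as a protein, so its mRNA level does not report its activity. HSP70 proteins bind short hydrophobic stretches of unfolded chains. HSP40 proteins deliver clients to them, while HSP110 proteins and BAG3 exchange their nucleotide. HSP90 proteins act later, on nearly folded clients such as kinases and steroid receptors, and small heat shock proteins hold unfolded chains without using ATP. HSPA8 and HSP90AB1 are the constitutive forms of HSP70 and HSP90, and HSPA1A, HSPA1B and HSP90AA1 are known as the stress-inducible forms.

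The promoters are shown for 4 members because the heat shock element is the sequence feature through which HSF1 is known to act on these genes. Each entry is a RefSeq window on GRCh38.p14 of 300 bases, from 250 bases before to 50 bases after a transcription start, written 5′ to 3′ along the gene. In the 3 genes named first, capitals mark a match to an element of 3 units, GAANNTTCNNGAA or its reverse complement TTCNNGAANNTTC. In HSPA1A, capitals mark an element of 2 units, GAANNTTC. Its other orientation, TTCNNGAA, was also searched, and every 3-unit match contains a match of both 2-unit forms.
HSPA8 (chr11:123062087-123062386, minus strand): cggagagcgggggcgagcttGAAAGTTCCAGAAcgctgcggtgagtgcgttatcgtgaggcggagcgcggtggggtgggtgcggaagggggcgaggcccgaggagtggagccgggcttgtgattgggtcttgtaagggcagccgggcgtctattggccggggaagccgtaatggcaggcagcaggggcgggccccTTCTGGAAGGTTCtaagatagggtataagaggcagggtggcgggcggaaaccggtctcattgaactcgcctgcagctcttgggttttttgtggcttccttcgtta
HSP90AB1 (chr6:44247693-44247992, plus strand): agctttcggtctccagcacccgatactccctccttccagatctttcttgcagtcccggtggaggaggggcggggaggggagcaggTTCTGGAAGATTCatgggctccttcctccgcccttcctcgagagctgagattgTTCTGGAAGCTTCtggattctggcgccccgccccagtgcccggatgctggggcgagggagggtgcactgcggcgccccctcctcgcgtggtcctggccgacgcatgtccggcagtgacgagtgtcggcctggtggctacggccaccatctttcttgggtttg
HSP90AA1 (chr14:102086995-102087294, minus strand): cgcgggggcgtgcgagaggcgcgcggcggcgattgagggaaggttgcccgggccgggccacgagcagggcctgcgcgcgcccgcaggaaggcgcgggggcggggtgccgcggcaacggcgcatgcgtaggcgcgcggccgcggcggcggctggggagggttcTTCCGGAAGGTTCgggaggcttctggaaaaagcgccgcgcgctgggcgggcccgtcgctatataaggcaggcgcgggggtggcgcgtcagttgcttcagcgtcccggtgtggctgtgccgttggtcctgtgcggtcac
HSPA1A (chr6:31815293-31815592, plus strand): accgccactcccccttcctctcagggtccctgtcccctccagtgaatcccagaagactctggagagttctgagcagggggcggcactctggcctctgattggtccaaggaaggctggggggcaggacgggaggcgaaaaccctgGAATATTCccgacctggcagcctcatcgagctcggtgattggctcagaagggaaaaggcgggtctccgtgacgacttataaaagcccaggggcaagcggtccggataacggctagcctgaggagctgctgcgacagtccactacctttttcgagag

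Of the 10 members, 9 had at least 1 promoter in the table and 3 held a 3-unit match in at least 1 promoter. Counted by promoter rather than by gene, 172 of all 35116 held such a match (0.490%). The HSPA8 promoter held 2 such matches, GAAAGTTCCAGAA beginning 230 bases and TTCTGGAAGGTTC beginning 55 bases upstream of the start. HSP90AB1 held 2, at 165 and 112 bases, and HSP90AA1 held 1, at 88 bases. The windows of other starts of HSP90AB1 and HSP90AA1 held none. The shorter 2-unit form occurred in 4737 of all promoters (13.5%). It was found in HSPA1A at 106, in HSPA1B at 105 and in HSPB1 at 182 bases upstream. DNAJB1 carried it at 77 and 47 bases in the window of one start, and once more directly at the start in that of another. No match was found in the windows of HSPH1 and BAG3. These matches describe letters in a window, not bound sites, and binding of HSF1 was not measured.

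The FPKM values (fragments per kilobase of transcript, relative to the mapped fragments) are levels on a scale that allows genes to be compared per length. Between 24143 and 24601 genes had a value above 0 in a library, and 11924 to 12027 reached 1 FPKM. Read depth is unknown. Of the RPE markers, RPE65 (0 to 0.02 FPKM), RLBP1 (0 to 0.29 FPKM) and TYR (0 to 0.17 FPKM) were at or near 0, whereas OTX2 (27.5 to 31.4 FPKM), MITF (15.5 to 18.6 FPKM), KRT8 (171 to 209 FPKM) and KRT18 (222 to 246 FPKM) were present. DCT was at most 0.01 FPKM, TYRP1 and SERPINF1 were under 1 FPKM, and PMEL lay between 1.07 and 1.42 FPKM. BEST1 was uneven in both groups, at 2.65, 0.65 and 57.0 FPKM in Era and 36.5, 0.60 and 4.80 FPKM in Era+VK, so that Era replicate 3 and Era+VK replicate 1 stood apart in it. Era+VK replicates 2 and 3 stood apart in other genes. Their summed level of 19 erythroid markers was 246 and 240 FPKM, mostly fetal and embryonic globins, against 5.71 to 6.72 FPKM in the other 4 libraries, where EPOR made up nearly all of it. In all libraries HBB stayed at or below 0.04 FPKM and SLC4A1 at or below 0.02 FPKM. Member values are therefore given for each Era+VK library, and replicate 1, which lacks the globins, was also compared alone with Era, as a value without a test.

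The cytosolic chaperones were abundant in ARPE-19 under erastin, and the members together took 0.598%, 0.584% and 0.587% of the summed FPKM in Era replicates 1, 2 and 3, and 0.554%, 0.570% and 0.558% in Era+VK. None of the 10 members passed an adjusted p of 0.05 in limma (Era+VK against Era, Benjamini-Hochberg over the 11981 genes averaging 1 FPKM or more), where 74 of all genes tested passed (0.618%; 16 higher and 58 lower, or 11 and 100 with the GC trend of each library removed). All 10 members were above that filter. At an unadjusted p under 0.05 there were 2 members, HSPA8 and HSPB1, both lower in Era+VK. Among all genes, 15.8% reached that p in either direction, 5.42% with a lower and 10.4% with a higher level. In 7 members the mean was lower in Era+VK and in 3 it was higher, with a median log2 fold change of -0.07 against 0.03 for all genes tested, of which 36.7% were negative. In 5 members the Era and Era+VK ranges did not overlap, all 5 with the lower values in Era+VK, and in the other 5 they did. Groups without overlap were found in 7.04% of all genes with Era+VK lower and in 15.1% with Era+VK higher. In bulk RNA, fewer cells carrying a transcript and less of it per cell cannot be told apart.

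The 95% intervals of limma were taken gene by gene, without adjustment, and rest on the spread between these libraries. Across the 10 members they ran from -0.36 to 0.22 on the log2(FPKM + 1) scale, or from -22.1% to 16.5% of FPKM + 1. No member's interval reached a doubling or a halving. With 3 libraries against 3 the exact two-sided permutation test cannot give a p below 0.1, and it gave that value for the 5 members whose ranges did not overlap.

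**Figure D1:**
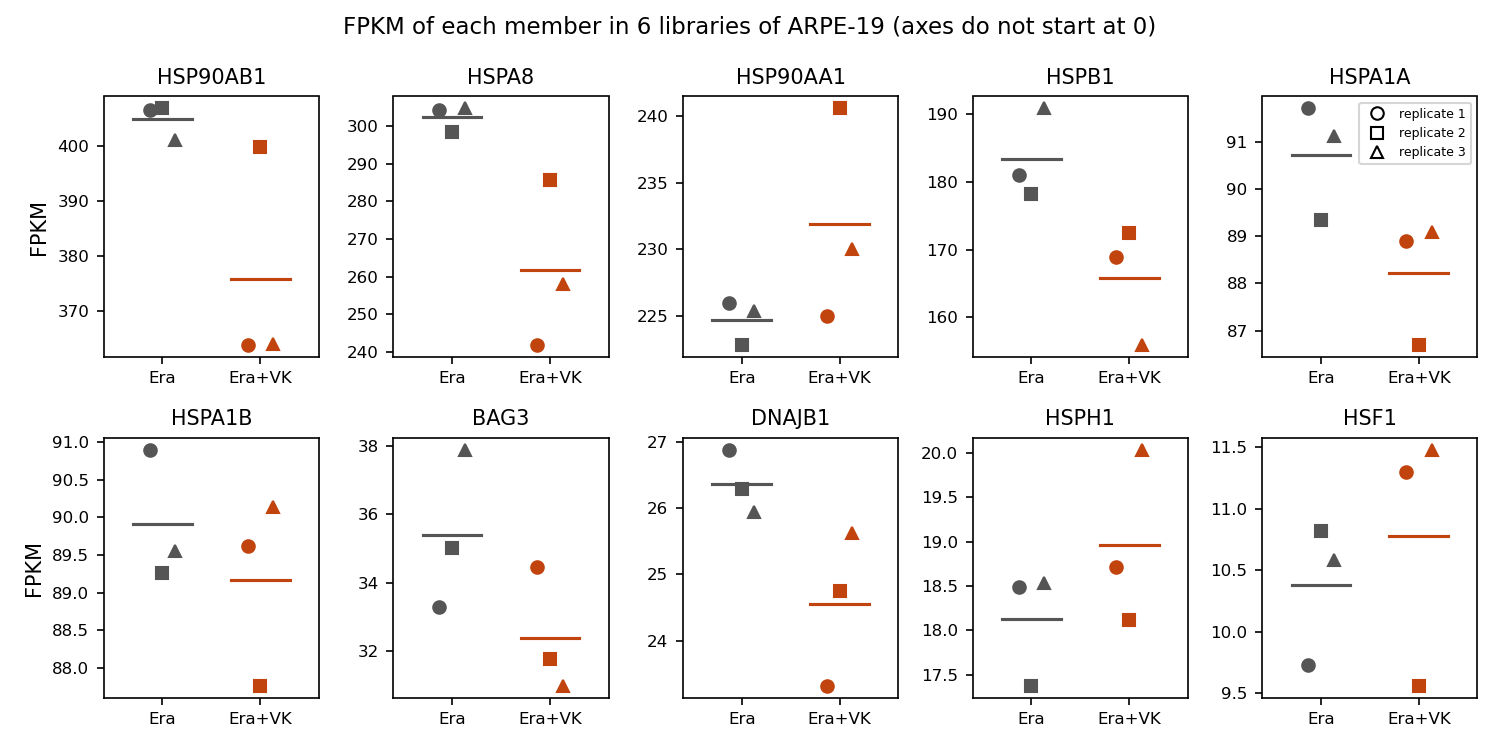
Level in FPKM of each of the 10 members in each library, with Era in grey, Era+VK in orange, a symbol for each replicate number and a bar at the group mean; each panel has its own linear axis, which does not start at 0. HSP90AB1, HSPA8, HSPB1, HSPA1A and DNAJB1 are the 5 members in which every Era+VK library lies below every Era library.

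The order of the levels was the same in both groups apart from one pair. HSP90AB1 was highest, followed by HSPA8, HSP90AA1, HSPB1, HSPA1A with HSPA1B, BAG3, DNAJB1, HSPH1 and HSF1. Within each group, neighbours in this order had ranges that did not overlap, except HSPA1A and HSPA1B, whose ranges overlapped in both groups and whose order changed between them. The constitutive HSP70 and HSP90 genes thus stood above the inducible forms of the same family in every library.

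HSPA8 encodes HSC70, the constitutive HSP70, which folds nascent chains, uncoats clathrin vesicles and targets proteins to lysosomes (ENSG00000109971, GRCh38 chr11:123057489-123063230, minus strand). Its levels were 304, 298 and 305 FPKM in Era replicates 1, 2 and 3 and 242, 286 and 258 FPKM in Era+VK. All 3 Era+VK libraries lay below all 3 Era libraries, with replicate 2 closest to Era. The means (± SD, n = 3 each) were 303 ± 3.62 FPKM without and 262 ± 22.2 FPKM with VK1, a difference of -13.4%. Its log2 fold change of -0.21 (SE 0.06, 95% interval -0.36 to -0.06) was the lowest of the members, and its adjusted p in limma was 0.197 (unadjusted 0.0121). Era+VK replicate 1 alone gave -0.32, and without Era+VK replicate 2 the adjusted p was 0.0561, the lowest over the alternatives. The exons of HSPA8 also hold the small nucleolar RNAs SNORD14C and SNORD14D, which cover 88 and 87 of its 4849 annotated exon bases.

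HSPA1A and HSPA1B are neighbouring genes for nearly identical stress-inducible HSP70 proteins, which are among the strongest targets of HSF1 after heat. HSPA1A (ENSG00000204389, chr6:31815464-31817946, plus strand) was at 91.7, 89.3 and 91.1 FPKM in Era and 88.9, 86.7 and 89.1 FPKM in Era+VK. HSPA1B (ENSG00000204388, chr6:31827735-31830255, plus strand) was at 90.9, 89.3 and 89.6 FPKM in Era and 89.6, 87.8 and 90.1 FPKM in Era+VK. The Era and Era+VK ranges of HSPA1A did not overlap, although the lowest Era value (89.34 FPKM) and the highest Era+VK value (89.09 FPKM) were nearly equal, and those of HSPA1B overlapped. The log2 fold change was -0.04 (SE 0.04, adjusted p = 0.658 in limma) for HSPA1A and -0.01 (SE 0.04, adjusted p = 0.912) for HSPA1B, the latter turning to 0.005 under quantile normalization. Of the 150-base windows of the HSPA1A transcript, 67.1% were also present in HSPA1B, and 66.0% of those of HSPA1B were present in HSPA1A. How the authors' quantification divided such fragments is not stated, so the split between the copies is uncertain and their sum is the firmer value. The sum was 183, 179 and 181 FPKM in Era and 179, 174 and 179 FPKM in Era+VK. Of the annotated exon bases of HSPA1B, 36.5% are also in AL671762.1, a processed transcript on the same strand.

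HSP90AB1 encodes the constitutive cytosolic HSP90 (ENSG00000096384, chr6:44246166-44253888, plus strand) and was the most abundant member, above 99.6% of all genes tested. It was at 407, 407 and 401 FPKM in Era and 364, 400 and 364 FPKM in Era+VK. Replicates 1 and 3 of Era+VK lay well below Era, while replicate 2 was just below the lowest Era library. The means (± SD, n = 3 each) were 405 ± 3.19 FPKM without and 376 ± 20.7 FPKM with VK1, a difference of -7.13% and a log2 fold change of -0.11 (SE 0.05, 95% interval -0.23 to 0.01, adjusted p = 0.370 in limma).

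HSP90AA1 encodes the inducible HSP90 (ENSG00000080824, chr14:102080738-102139699, minus strand). Its levels were 226, 223 and 225 FPKM in Era and 225, 241 and 230 FPKM in Era+VK. The groups overlapped, with Era+VK replicate 2 above all others. The log2 fold change was 0.04 (SE 0.04, 95% interval -0.06 to 0.15, adjusted p = 0.666 in limma). HSP90AA1 had the smallest spread of the members in Era, with a coefficient of variation of 0.738%. HSP90AB1, HSPA1B, HSPA8 and HSPA1A were close to it, at 0.788%, 0.971%, 1.20% and 1.36%. The other members lay between 1.82% (DNAJB1) and 6.59% (BAG3). The median over all genes tested was 5.21%, but it includes genes near 1 FPKM, whereas HSP90AA1 lay above 99.2% of them in level.

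Ratios within a library do not depend on how that library was scaled. The ratio of HSP90AA1 to HSP90AB1 was 0.556, 0.548 and 0.562 in Era and 0.618, 0.602 and 0.632 in Era+VK, without overlap. The ratio of HSPA1A plus HSPA1B to HSPA8 was 0.600, 0.599 and 0.593 in Era and 0.738, 0.610 and 0.695 in Era+VK, again without overlap. In both families the inducible form was thus a larger part of the total in each Era+VK library, while the group mean of the constitutive form was the lower one with VK1. These ratios were chosen after the values were seen and carry no test.

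HSPB1, or HSP27, is a small heat shock protein that holds unfolded chains, binds actin filaments and has been linked to lower iron uptake in ferroptosis (ENSG00000106211, chr7:76302544-76304295, plus strand). It was at 181, 178 and 191 FPKM in Era and 169, 172 and 156 FPKM in Era+VK. Every Era+VK library was below every Era library, and replicate 3 was the lowest. The means (± SD, n = 3 each) were 183 ± 6.66 FPKM without and 166 ± 8.70 FPKM with VK1, a difference of -9.60% and a log2 fold change of -0.15 (SE 0.05, 95% interval -0.27 to -0.02). Its adjusted p in limma was 0.260 (unadjusted 0.0284). Era+VK replicate 1 alone gave -0.12.

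DNAJB1 encodes HSP40, which delivers clients to HSP70 and also binds HSF1 when the response is shut off (ENSG00000132002, chr19:14514770-14529770, minus strand). It was at 26.9, 26.3 and 25.9 FPKM in Era and 23.3, 24.8 and 25.6 FPKM in Era+VK. The groups did not overlap, although Era+VK replicate 3 was close to the lowest Era library. The log2 fold change was -0.10 (SE 0.05, 95% interval -0.21 to 0.01, adjusted p = 0.357 in limma).

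BAG3 releases clients from HSP70 and passes them to selective autophagy together with small heat shock proteins (ENSG00000151929, chr10:119651370-119677819, plus strand). It was at 33.3, 35.01 and 37.9 FPKM in Era and 34.5, 31.8 and 31.0 FPKM in Era+VK. The groups overlapped, since Era+VK replicate 1 lay above Era replicate 1. The log2 fold change was -0.12 (SE 0.06, 95% interval -0.27 to 0.02, adjusted p = 0.382 in limma), and BAG3 had the widest spread of the members in Era, with a coefficient of variation of 6.59%.

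HSPH1 encodes HSP110, a nucleotide exchange factor of HSP70 that helps to dissolve aggregates (ENSG00000120694, chr13:31134974-31162388, minus strand). It was at 18.5, 17.4 and 18.5 FPKM in Era and 18.7, 18.1 and 20.04 FPKM in Era+VK. The groups overlapped, and only Era+VK replicate 3 was clearly above Era. The log2 fold change was 0.06 (SE 0.05, 95% interval -0.06 to 0.18, adjusted p = 0.608 in limma).

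HSF1, the transcription factor, had the lowest level of the members, above 68.4% of all genes tested (ENSG00000185122, chr8:144291591-144314722, plus strand). It was at 9.73, 10.8 and 10.6 FPKM in Era and 11.3, 9.56 and 11.5 FPKM in Era+VK. The groups overlapped fully, with Era+VK replicate 2 below and replicates 1 and 3 above all Era libraries. The means (± SD, n = 3 each) were 10.4 ± 0.573 FPKM without and 10.8 ± 1.06 FPKM with VK1, with a log2 fold change of 0.05 (SE 0.07, 95% interval -0.13 to 0.22, adjusted p = 0.800 in limma). Exons of DGAT1 on the opposite strand cover 2.62% of the annotated exon bases of HSF1. Whether fragments were assigned by strand is not stated.

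**Figure D2:**
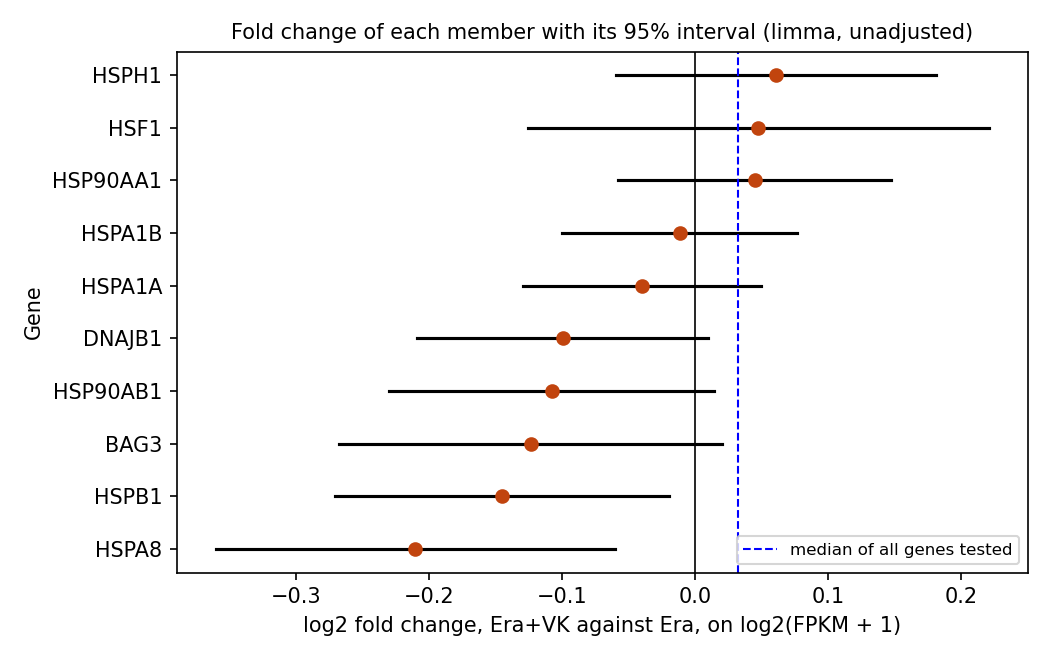
Log2 fold change of each member on the log2(FPKM + 1) scale, Era+VK against Era, with 95% intervals from limma (n = 3 libraries each). The intervals of HSPA8 and HSPB1 lie below 0 and those of the other 8 members include 0, before adjustment for the number of genes tested.

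The Era+VK libraries did not move as one. The differences of HSPA8 from the Era mean were -0.32, -0.08 and -0.23 on the log2(FPKM + 1) scale in replicates 1, 2 and 3, and those of HSP90AB1 were -0.15, -0.02 and -0.15. Replicate 2 was thus nearest to Era for both abundant constitutive chaperones. HSF1 showed 0.11, -0.11 and 0.13, the sign differing in replicate 2. HSPB1, at -0.12, -0.09 and -0.23, and BAG3, at -0.04, -0.15 and -0.19, were lowest in replicate 3. The globins were present in replicates 2 and 3 and near 0 in replicate 1. Replicate 1 lay between the other two in HSF1, HSPB1, HSPH1, HSPA1A and HSPA1B. It lay to one side of both in HSPA8, HSP90AB1, BAG3, DNAJB1 (-0.17, -0.09 and -0.04) and HSP90AA1 (0.00, 0.10 and 0.03), although in HSP90AB1 it was level with replicate 3. The part of the globin-bearing libraries in these values was not tested. Transcript length also differed between the libraries. The 841 tested genes with transcripts under 1000 bases had median differences of -0.04, 0.09 and -0.03 in replicates 1, 2 and 3, and the 3290 genes over 5000 bases had 0.06, 0.0007 and 0.07. With the length trend of each library removed, an alternative added after the data were seen, HSPA8 was at -0.23 (adjusted p = 0.0874 in limma), and 0 members passed. The part of length in the member values was not otherwise tested.

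**Figure D3:**
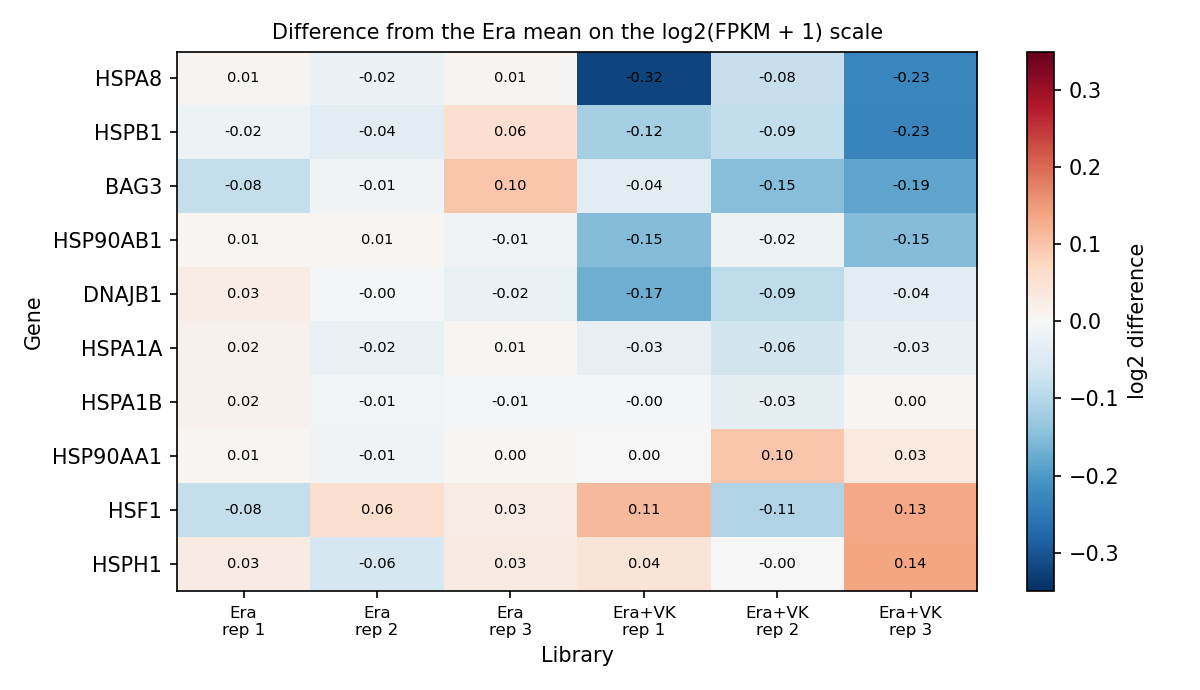
Difference of each member in each library from the Era mean on the log2(FPKM + 1) scale, in blue below and red above it, with the value printed in each cell. HSPA8 reaches -0.32 in Era+VK replicate 1 and -0.08 in replicate 2, and HSF1 is below the Era mean in replicate 2 alone among the Era+VK libraries.

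The other genes of the chaperone network were read from the same fit in 9 lists of 156 different genes, of which 147 outside the members were tested. Of these 147, HSPB2 fell and CALR rose at an adjusted p under 0.05, against 0.618% of all genes tested. No gene passed among the cytosolic partners of HSP70 and HSP90 other than the small heat shock proteins.

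Among 19 other HSP70 and HSP40 genes tested, taken as cytosolic when the list was made, 10 had a higher and 9 a lower mean in Era+VK, 0 passed, 2 reached an unadjusted p under 0.05 and the median log2 fold change was 0.0003. The lowest values were -0.05 for HSPA1L, which turned to 0.006 without Era replicate 3, and -0.04 for HSPA13, which is known as a microsomal protein and is no cytosolic chaperone. The highest were 0.15 for DNAJC21, a ribosome biogenesis J-protein, and 0.14 for HSPA14, a ribosome-associated HSP70. Among 24 co-chaperones, 13 were higher and 11 lower, 0 passed, 2 reached an unadjusted p under 0.05 and the median was 0.01. UNC45A, which delivers myosin to HSP90, averaged 14.2 FPKM without and 16.0 FPKM with VK1 (log2 fold change 0.16, limma adjusted p = 0.182), and the phosphatase PPP5C had 0.11. The lowest were TTC4, with -0.22, and BAG5, with -0.09.

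HSPB2, a small heat shock protein best known from muscle (ENSG00000170276, chr11:111912242-111914093), was at 6.10, 6.17 and 7.38 FPKM in Era and 4.20, 4.49 and 4.38 FPKM in Era+VK. All Era+VK libraries were below all Era libraries, and the log2 fold change was -0.49 (SE 0.07, adjusted p = 0.0372 in limma). The call was lost without any 1 of the 6 libraries (adjusted p = 0.0613 to 0.121). Of the annotated exon bases of HSPB2, 53.9% are shared with the readthrough gene HSPB2-C11orf52 on the same strand and 46.9% with CRYAB on the opposite strand, so its level is uncertain. The other 3 small heat shock proteins tested did not pass. CRYAB, the lens and stress chaperone alpha B-crystallin, had a log2 fold change of 0.13, HSPB8, the partner of BAG3, had 0.18, and HSPB11 had 0.06 (-0.03 with Era+VK replicate 1 alone). The median of the 4 was 0.10.

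Of 14 tested HSF family members and regulators of HSF1, 11 were higher and 3 lower in Era+VK, 0 passed, and the median was 0.07. HSF2, which forms mixed trimers with HSF1, averaged 7.74 FPKM without and 8.53 FPKM with VK1 (log2 fold change 0.12, unadjusted p = 0.0470 and adjusted p = 0.310 in limma). EP300, the acetyltransferase that acts on HSF1, had 0.13, and the lowest were HSBP1L1 with -0.13 and the kinase GSK3B with -0.02. Of 24 tested other stress-inducible targets of HSF1, 12 were higher and 12 lower, 0 passed, 1 reached an unadjusted p under 0.05 and the median was -0.0008. SERPINH1, the collagen chaperone HSP47, averaged 36.8 FPKM without and 32.4 FPKM with VK1 (log2 fold change -0.18, limma adjusted p = 0.166), and ATF3 had -0.15. The highest were HSPB8 and CRYAB. HSPA6, an HSP70 gene known to be nearly silent without strong proteotoxic stress, was at 0.15, 0.44 and 0.32 FPKM in Era and 0.18, 0.44 and 0.29 FPKM in Era+VK, below the level tested.

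Of 14 TRiC and prefoldin subunits, which fold actin and tubulin, 11 were lower and 3 higher, 0 passed and the median was -0.02. PFDN5 had -0.36, with 13.2, 13.6 and 15.3 FPKM in Era and 8.71, 14.6 and 9.51 FPKM in Era+VK, so that Era+VK replicate 2 lay within the Era range. Without that library it passed (-0.57, adjusted p = 0.0371 in limma), and without Era+VK replicate 1 it was at -0.23 (adjusted p = 0.574). PFDN4 had -0.30, and the highest were PFDN1 with 0.03 and VBP1 with 0.02, both of which turned negative with Era+VK replicate 1 alone, with the GC trend removed, and in VBP1 also under quantile normalization. Of 31 proteasome subunits, 15 were higher and 16 lower, 0 passed, 0 reached an unadjusted p under 0.05 and the median was -0.002. They lay between -0.10 for PSMA1, next to PSMB1 with -0.09, and 0.09 for PSMD11, next to PSMC2 with 0.07.

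The chaperones of the organelles were read in the same way. Of 14 mitochondrial chaperones and proteases, 7 were higher and 7 lower, 0 passed, and the median was 0.0004. The protease LONP1 averaged 44.7 ± 1.89 FPKM without and 36.6 ± 1.90 FPKM with VK1 (SD, n = 3 each), with a log2 fold change of -0.28 and a limma adjusted p of 0.0718. HSPA9, the mitochondrial HSP70, was at 35.6 ± 0.870 and 30.0 ± 1.28 FPKM (log2 fold change -0.24, adjusted p = 0.0751). Both passed with the GC trend or the length trend removed (adjusted p = 0.0301 to 0.0423), and HSPA9 also after quantile normalization (0.0452). Leaving out 1 library gave adjusted p-values from 0.0870 to 0.231 for LONP1 and from 0.0589 to 0.248 for HSPA9. SPG7 had 0.12 and AFG3L2 had 0.09. Of 19 chaperones of the endoplasmic reticulum, 17 were higher and 2 lower, 11 reached an unadjusted p under 0.05 with a higher level, against 10.4% of all genes tested, and the median was 0.14. CALR, the calcium-binding lectin chaperone calreticulin, was at 371, 373 and 380 FPKM in Era and 462, 482 and 453 FPKM in Era+VK. It rose by 0.31 on the log2(FPKM + 1) scale (SE 0.05, adjusted p = 0.0386 in limma), and the call was lost without any 1 library other than Era+VK replicate 2 (adjusted p = 0.0875 to 0.195). SDF2L1 had 0.33 (adjusted p = 0.291), which came from Era+VK replicates 2 and 3, since replicate 1 alone gave 0.01 and the fit without it 0.49. The lowest were PDIA3 with -0.06 and P4HB with -0.03, which turned to 0.01 under quantile normalization. The medians of the members (-0.07) and of the endoplasmic reticulum chaperones (0.14) lay on opposite sides of that of all genes (0.03), and the difference between the lists was not tested.

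**Figure D4:**
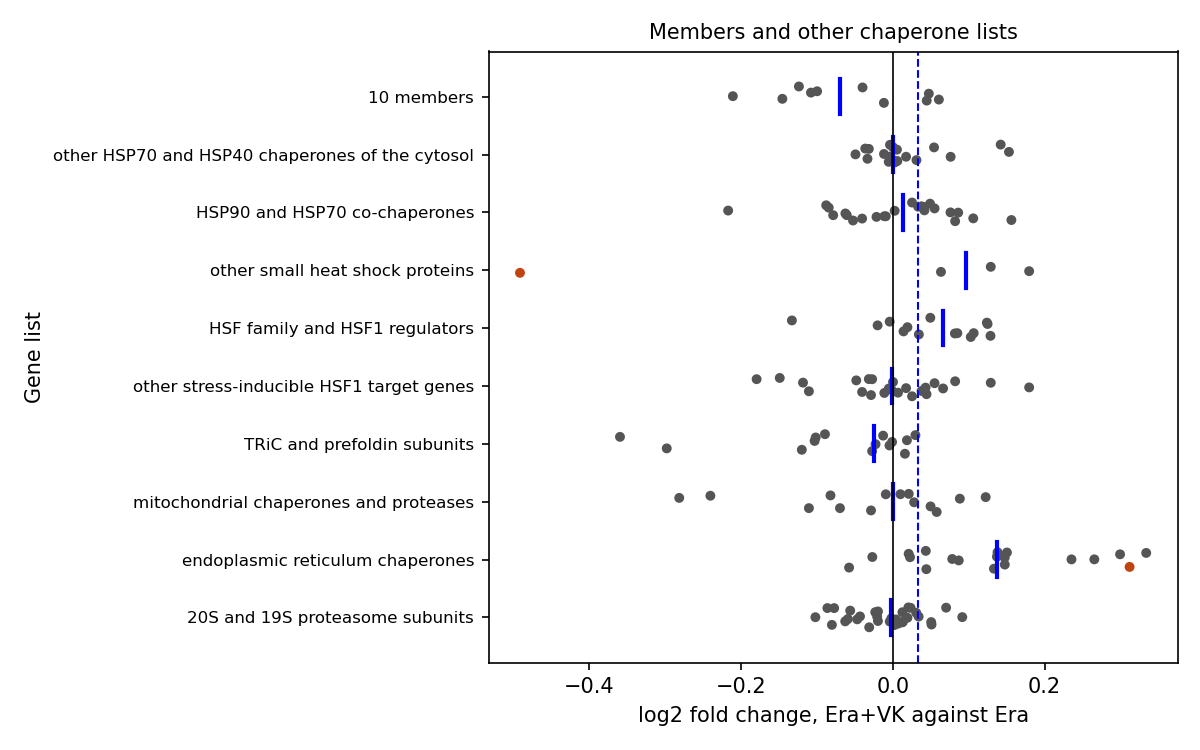
Log2 fold change of every tested gene in the 10 members and the 9 other lists, Era+VK against Era, with genes at an adjusted p under 0.05 in orange, the median of each list as a blue bar and that of all genes tested as a dashed line. HSPB2 at -0.49 and CALR at 0.31 are the 2 genes that passed.

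The genes whose pattern over the 6 libraries was most like that of 3 members were named by the root mean square difference of log2(FPKM + 1), each gene centred on its mean. For HSF1 these were SREK1 (0.0181), DGKE (0.0221) and CHD1 (0.0251), where the root mean square of HSF1 itself was 0.0911. For HSPA1A they were CNOT2 (0.0125), THOC1 (0.0127) and GSK3B (0.0129), against 0.0261 for HSPA1A itself. For HSPH1 they were DHRS12 (0.0143) and TEPSIN (0.0149), against 0.0584 for HSPH1. In HSF1 the likeness followed the low value of Era+VK replicate 2 and the higher ones of replicates 1 and 3.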

How the data were processed

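RNA-seq of 6 ARPE-19 libraries (3 Era, 3 Era+VK) was analysed from the FPKM values per gene that the authors deposited, with no counts, so depth and counting error are unknown. The sequencing was paired-end on an Illumina NovaSeq instrument. The submitters' processing notes name cutadapt, HISAT2, StringTie 2.1.6 and the mouse build mm10, while the gene identifiers are human, and the build used for alignment is not settled by the sources used here. Because FPKM share out the mapped fragments of each library, abundant genes that change shift the rest.

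Genes averaging 1 FPKM or more were tested on log2(FPKM + 1) in R 4.3.3 with limma 3.58.1 (empirical Bayes with trend), without a replicate term, with Benjamini-Hochberg adjustment at 0.05. A fold change on this scale understates that of low genes. Exact permutation tests were two-sided. The fit was tested on simulated data for Era+VK against Era over 11981 genes, where it called 191 of 200 genes changed by 1 on the log2 scale and 9 others. Smaller changes, such as those of the members, were not simulated. Positions, overlaps, GC content and lengths were taken by Ensembl identifier from GENCODE 29 (GRCh38; GC for 11893 genes tested), and promoters from RefSeq GRCh38.p14, matched by symbol for 9 of the 10 members (not HSF1).

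The members and lists were chosen with earlier results of these data known. All members are named. From other lists, genes with an adjusted p under 0.05, the 2 highest and the 2 lowest are named, and for HSF1, HSPA1A and HSPH1 the 3 genes most like them, of which 1 is not reported here.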

Additional observations from a re-analysis of the deposited data

How the results depend on the processing

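Under 15 alternatives, the direction of 9 members was kept in each of them. Aside from Era+VK replicate 1 alone, a lone library given as a value without a test, 0 of the 10 members passed in any of them. HSPA8 ranged from -0.32 to -0.15 on the log2 scale, with a lowest adjusted p of 0.0561 in limma, and HSPB1 from -0.17 to -0.10 (lowest 0.137). Relative to their size, other values moved more, with 0.004 to 0.12 for HSF1, -0.17 to -0.04 for BAG3, 0.002 to 0.07 for HSP90AA1, -0.17 to -0.06 for DNAJB1 and 0.02 to 0.09 for HSPH1. Of these, leaving out 1 library moved each by over 1.5 times, and HSPA1B too. HSP90AB1 ranged from -0.15 to -0.05, and was nearest to no change under quantile normalization. Its lowest adjusted p in limma was 0.0947, without Era+VK replicate 2, which is below the lowest of HSPB1. The count over all genes was 74. It was 122 with at least 1 FPKM required in every library, 1 without a filter and 112 after quantile normalization. With the replicate block it was 42, and with the length trend removed (added after seeing the data) 170. Leaving out 1 Era library gave 2 to 5, and leaving out 1 Era+VK library gave 42 to 71. For the other lists the count was 2, against 0 without a filter, 0 with the replicate block and 4 after quantile normalization. It was 4 with the GC trend removed, 5 with the length trend removed and 0 to 2 leaving out 1 library. The median of the members (-0.07) was -0.0326 with Era+VK replicate 1 alone, -0.0371 after quantile normalization, -0.0971 with the GC trend and -0.0918 with the length trend removed. The cause of these changes was not tested. The replicate numbers were not taken as pairs, since no pairing is stated. The deviations of same-numbered libraries correlated at 0.0709, 0.103 and 0.0210 over genes. Era replicates 1 and 2 correlated best with the Era+VK library of the same number, and with the others at -0.114 to 0.0201. Era replicate 3 correlated best with Era+VK replicate 1 (0.0401). These values do not settle whether the libraries were paired. The block ended the calls of HSPB2 and CALR and made no member pass.

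Among the named genes, directions turned in 6, each near 0 as reported. With Era+VK replicate 1 alone HSPB11 was -0.0280, PFDN1 -0.0087 and VBP1 -0.0852. With the GC trend removed PFDN1 was -0.0002 and VBP1 -0.0160. After quantile normalization HSPA1B was 0.0049, P4HB 0.0136 and VBP1 -0.0170. Leaving out 1 library gave -0.0081 to 0.0779 for PFDN1, -0.0105 to 0.0705 for VBP1 and -0.0828 to 0.0056 for HSPA1L. FPKM without counts allow no statement on depth.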

Other observations

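Outside the members, 38 tested genes had a promoter with a 3-unit heat shock element, out of 9022 tested genes with a promoter in the table. This group was formed after values of these data were known, and it was not tested as a group. In Era+VK 19 of them were higher and 19 lower, with a median log2 fold change of 0.005, where 36.7% of all genes tested were lower and the median was 0.03. PAPPA2, a protease that cleaves insulin-like growth factor binding proteins, fell, with means of 8.93 FPKM in Era against 3.96 FPKM in Era+VK (-1.01 on the log2 scale, limma adjusted p = 0.0200), and was the 1 gene that passed, against 0.618% of all genes tested. The next lowest were the small nucleolar RNA host gene GAS5, with -0.33, and PRKCSH, a glucosidase subunit of the endoplasmic reticulum, with -0.20. The highest were MPND and TEX2, both with 0.24. Chaperone genes in the group had -0.18 for SERPINH1, the collagen chaperone HSP47, -0.11 for HSPD1, the mitochondrial HSP60, -0.03 for the HSP40 gene DNAJA1, -0.01 for the HSP90 co-chaperone CHORDC1 and 0.02 for the HSP40 gene DNAJB6. These 5 were singled out after their values were seen.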
